A study of Caenorhabditis elegans with 12 samples.

Results

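Genes named dod, an abbreviation of downstream of daf-16, were followed across 4 genotypes of whole Caenorhabditis elegans. The set is dod-3, dod-17, dod-19, dod-20, dod-21, dod-22, dod-23 and dod-24, and its members were picked by gene name, 8 of the 46936 genes in the count table. The genotypes were the double mutant daf-2lf;skn-1gf, daf-2lf, skn-1gf and wild type, with 3 libraries each and 12 in all, where lf and gf stand for loss and gain of function. The worms were fed OP50 bacteria on NGM plates, and alleles, age and stage are not given in the sources used here. No genotype lacked daf-16, so dependence on DAF-16 itself was not measured. The stated aim was to compare the double mutant with daf-2lf, and the other genotypes also give the effect of skn-1gf on an otherwise wild-type background.

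DAF-16 is the worm's FOXO transcription factor. When signalling through the insulin/IGF-1 receptor DAF-2 is low, DAF-16 enters the nucleus and changes the expression of many genes, and the dod genes were named for this dependence. They fall into genes that rise in daf-2 mutants, of which dod-3 is a known example, and genes that fall there, to which dod-17, dod-22 and dod-24 are commonly assigned. SKN-1, an Nrf-type transcription factor, drives detoxification and oxidative stress genes. Several genes with a CUB-like domain, dod-22 and dod-24 among them, are known as intestinal genes that respond to bacterial infection, in part through the p38 kinase PMK-1.

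Most of these genes have another dod gene nearby. By the domain names in the deposited gene descriptions, dod-17, dod-21, dod-22 and dod-24 encode proteins with a CUB-like domain, and all 4 lie within 41.6 kb of chromosome IV. In WBcel235 coordinates, dod-21 (gene 183134, C32H11.10) spans IV:12936738-12937988 on the plus strand, and dod-24 (gene 178245, C32H11.12) spans IV:12940106-12941354 on the minus strand, 2.1 kb away. Both have 3 exons and 361 codons in the Ensembl annotation. The gene dod-22 (gene 178247, F55G11.5) spans IV:12965374-12967392 and dod-17 (gene 187266, K10D11.1) spans IV:12976303-12978343, both on the plus strand with 8 exons. On chromosome V, dod-19 (gene 178564, ZK6.10, V:411782-414759, minus strand) and dod-20 (gene 182037, B0554.6, V:422433-424177, plus strand) carry a domain that the descriptions name transmembrane glycoprotein, and 7.7 kb separate them. The remaining genes have no domain named in the table: dod-3 (gene 178737, C24B9.9) at V:2730622-2731098 and dod-23 (gene 186056, F49E12.2) at II:8398161-8399164, both on the minus strand. Each interval covers a whole gene with its exons and introns, and no annotated gene overlaps any of the 8.

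Libraries held 16779245 to 29346039 counts. Levels are given as CPM, counts scaled to 1e6 per library with trimmed-mean factors, and a gene is called where edgeR's quasi-likelihood test gave a Benjamini-Hochberg adjusted p under 0.05 over the 15575 genes that passed a filter on low counts. Nothing in the labels says that replicates came from separate cultures, so p-values measure the spread between these libraries, which may be technical. One library stood apart. In daf-2lf replicate 1, the deviation of a gene from the mean of the other libraries of its genotype fell with gene length (Spearman's rho -0.58). It rose in daf-2lf replicates 2 and 3 (rho 0.41 and 0.48), where the mean of the others includes replicate 1. In the 9 libraries of the other genotypes rho lay between -0.20 and 0.13. Summed levels of tissue marker genes also moved with genotype. The summed level of 10 intestinal markers was 11637 to 13667 CPM in the double mutant, 10909 to 17589 in daf-2lf, 10298 to 12699.8 in skn-1gf and 6215 to 7122 in wild type. Germ line markers, 7 genes, summed to 664 to 704 CPM in the double mutant, 382 to 680 in daf-2lf, 462 to 1425 in skn-1gf and 2051 to 2277 in wild type. Sperm markers, 8 genes, summed to 2.68 to 3.18 CPM in the double mutant, 1.35 to 2.19 in daf-2lf, 54.5 to 149.9 in skn-1gf and 232 to 265 in wild type. Of the sperm markers 3 had 0 counts in daf-2lf and the double mutant. Epidermal markers, 4 genes, summed to 1027 to 1317 CPM in the double mutant, 1260 to 2176 in daf-2lf, 366 to 430.1 in skn-1gf and 740.2 to 859 in wild type. Neuronal markers, also 4, summed to 224 to 229.6 CPM in the double mutant, 219 to 272 in daf-2lf, 202 to 235.2 in skn-1gf and 152 to 170.4 in wild type. The 4 muscle markers summed to 12016 to 13940.0 CPM in the double mutant, 8959 to 11002 in daf-2lf, 8151 to 11327 in skn-1gf and 10074 to 10325 in wild type. Single markers did not all follow the sums. In skn-1gf against wild type 5 of 10 intestinal markers were called higher and 1 lower, and 3 of 4 neuronal markers higher. Called lower were 7 of 7 germ line, 6 of 8 sperm and 2 of 4 epidermal markers, and 0 of 4 muscle markers were called. Of all tested genes 22.6% were called higher and 21% lower there. The part of tissue makeup in the results below was not tested, and in whole animals fewer cells of a type cannot be told apart from less RNA per cell.

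The 8 genes spanned a wide range of levels, and their order changed with genotype. Per kilobase of gene length, dod-24 led in the double mutant with 729 ± 25.6 CPM per kb (SD, n = 3, as for the means that follow), ahead of dod-19 with 294 ± 27.7, dod-17 with 125 ± 8.54 and dod-3 with 30.4 ± 3.97. In daf-2lf, dod-19 led with 389 ± 88.0 CPM per kb, followed by dod-3 with 24.7 ± 1.28, and then by dod-17 with 13.2 ± 4.43 and dod-24 with 9.54 ± 1.40, whose libraries overlapped. In skn-1gf, dod-24 reached 2316 ± 795 CPM per kb, and dod-17 with 475 ± 156 and dod-19 with 302 ± 71.8 overlapped each other. In wild type, dod-19 led with 138 ± 17.5 CPM per kb, then dod-24 with 43.6 ± 8.33, dod-17 with 19.97 ± 2.80 and dod-3 with 8.56 ± 2.32, none overlapping its neighbour in the order. Far below, dod-20, dod-21 and dod-22 stayed under 6 CPM per kb on average in all 4 genotypes.

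**Figure D1:**
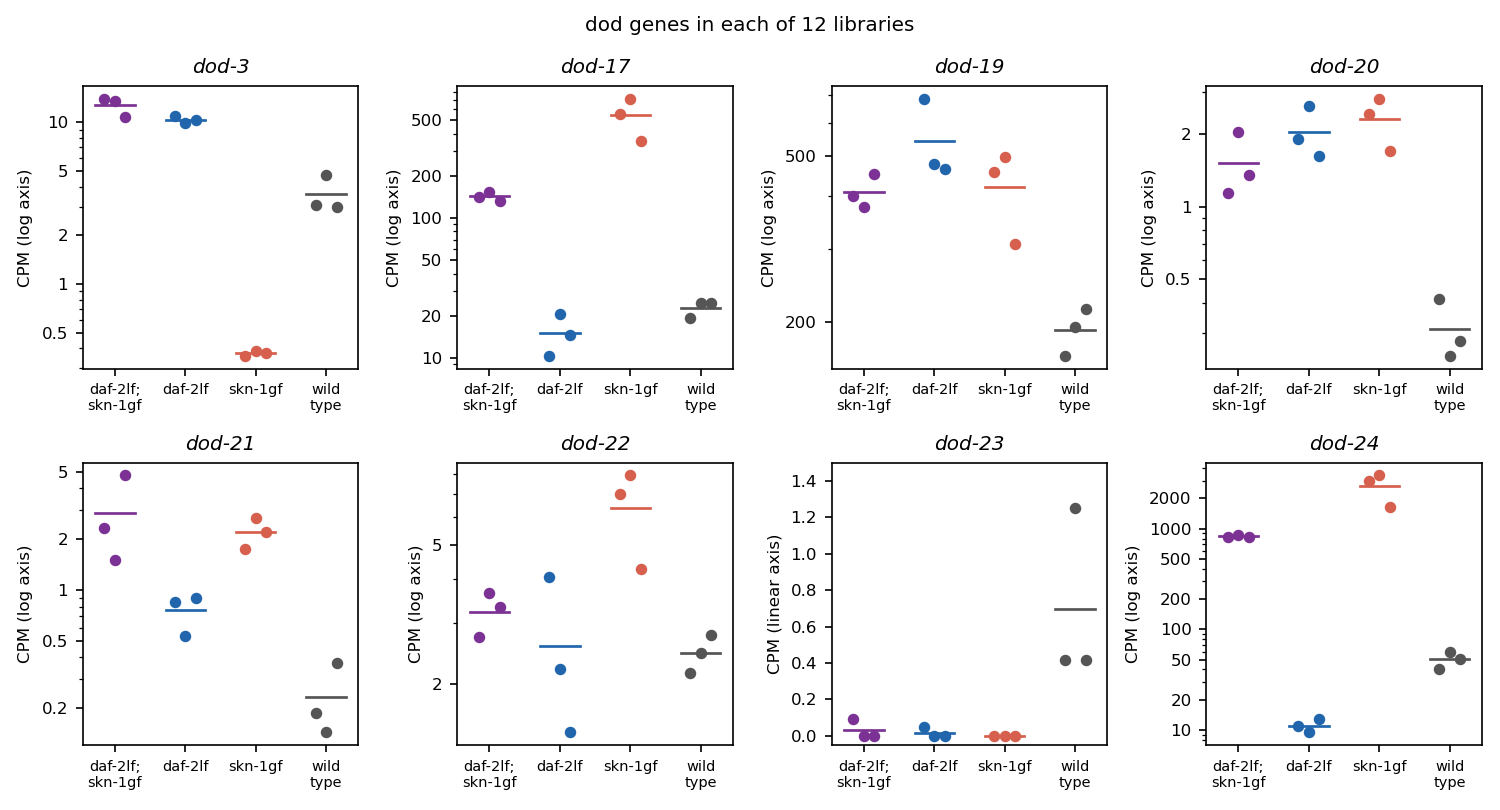
Level of each of the 8 dod genes in CPM (log axis, except the linear axis for dod-23), 1 point per library and a line at the genotype mean, for daf-2lf;skn-1gf, daf-2lf, skn-1gf and wild type from left to right. In skn-1gf and the double mutant, dod-17 and dod-24 stand far above the matching genotype without skn-1gf, dod-3 is lowest in skn-1gf, and dod-23 has counts almost only in wild type.

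Of the dod genes, dod-24 carried the largest response to skn-1gf on either background. It measured 819, 877 and 836 CPM in the double mutant, 10.9, 9.51 and 12.7 in daf-2lf, 3000.5, 3396 and 1644 in skn-1gf, and 40.5, 59.8 and 51.1 in wild type. Each genotype occupied its own range, with skn-1gf highest, then the double mutant, wild type and daf-2lf. In skn-1gf dod-24 alone held 0.171% to 0.317% of a library's counts, and per kilobase it ranked between 69 and 118 among the tested genes, against ranks 1987 to 2789 in wild type. Replicate 3 had the lowest level among the skn-1gf libraries for dod-24, and also for dod-17, dod-19, dod-20 and dod-22.

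For the stated aim of the study, dod-24 was 76.4-fold higher in the double mutant than in daf-2lf (log2 fold change 6.26, SE 0.30, edgeR adjusted p = 4.41e-07), the change with rank 9 by size among the 15575 tested genes. Without daf-2lf replicate 1 the log2 fold change was 6.24 (edgeR adjusted p = 2.56e-06), and that of dod-17 in this contrast was 3.03 (edgeR adjusted p = 9.91e-05). On the wild-type background, skn-1gf was 53.1-fold above wild type (log2 5.73, SE 0.29, edgeR adjusted p = 2.48e-07). Without skn-1gf, dod-24 fell by 2.19 on the log2 scale in daf-2lf against wild type (SE 0.25, edgeR adjusted p = 1.71e-05). The double mutant stood above wild type (log2 4.06, SE 0.27, edgeR adjusted p = 2.02e-07) and below skn-1gf (log2 -1.67, SE 0.24, edgeR adjusted p = 0.000155). The effect of skn-1gf was not called different between the backgrounds (log2 difference 0.52, SE 0.34, edgeR adjusted p = 0.261). The ranges of the summed intestinal markers overlapped between the double mutant and daf-2lf, also without daf-2lf replicate 1 (10909 and 13283 CPM in the other 2 libraries), and did not overlap between skn-1gf and wild type.

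The gene dod-17 followed a like course at a lower level. Its levels were 142.1, 152 and 133 CPM in the double mutant, 10.3, 20.4 and 14.5 in daf-2lf, 557, 712 and 356 in skn-1gf, and 19.1, 24.7 and 24.5 in wild type. Ranges in daf-2lf and wild type overlapped, and the other genotypes stood clear of both. The double mutant was 9.45-fold above daf-2lf (log2 3.24, SE 0.29, edgeR adjusted p = 5.63e-05), and skn-1gf was 23.8-fold above wild type (log2 4.57, SE 0.30, edgeR adjusted p = 8.24e-07). In daf-2lf against wild type the log2 fold change was -0.59 (SE 0.27), short of the threshold (edgeR adjusted p = 0.0812), and it passed under 6 of 20 other settings. The double mutant was below skn-1gf (log2 -1.93, SE 0.27, edgeR adjusted p = 0.000122) and above wild type (log2 2.65, SE 0.28, edgeR adjusted p = 7.72e-06). Across the 12 libraries, log2 levels of dod-17 and dod-24 had a Pearson r of 0.974, a description in which both genes share libraries, depth and the 4 genotypes.

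The dod gene closest to dod-24, dod-21, was higher in all mutants than in wild type but at low levels throughout. It measured 2.32, 1.501 and 4.78 CPM in the double mutant, 0.853, 0.538 and 0.898 in daf-2lf, 1.75, 2.68 and 2.196 in skn-1gf, and 0.189, 0.145 and 0.370 in wild type. All 9 mutant libraries lay above all wild-type libraries, where the gene had 16 counts in total. It was higher than wild type in skn-1gf (log2 3.21, SE 0.52, edgeR adjusted p = 0.000495) and in the double mutant (log2 3.601, SE 0.51, edgeR adjusted p = 8.92e-05), but it passed the filter through the mutant libraries. Its rise in daf-2lf (log2 1.69, SE 0.57, edgeR adjusted p = 0.0248) lost its call in 5 of 20 other settings, without daf-2lf replicate 1 (adjusted p = 0.0745), daf-2lf replicate 3 (0.0621), wild-type replicate 1 (0.0823) or wild-type replicate 2 (0.0809), and with limma-voom (0.0994). The double mutant did not pass the threshold against daf-2lf (log2 1.91, SE 0.44, edgeR adjusted p = 0.0599), although its libraries lay above those of daf-2lf.

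The remaining CUB-like gene, dod-22, had the smallest change of the 4 in skn-1gf against wild type. It measured 2.73, 3.64 and 3.32 CPM in the double mutant, 4.06, 2.21 and 1.46 in daf-2lf, 7.01, 7.92 and 4.27 in skn-1gf, and 2.15, 2.46 and 2.77 in wild type. Only skn-1gf stood above the other genotypes. It rose in skn-1gf against wild type (log2 1.37, SE 0.34, edgeR adjusted p = 0.00754). In daf-2lf against wild type its log2 fold change of 0.08 (SE 0.35, edgeR adjusted p = 0.865) turned to -0.53 without daf-2lf replicate 1. The double mutant differed from neither daf-2lf (log2 0.32, SE 0.35, edgeR adjusted p = 0.644) nor wild type (log2 0.39, SE 0.35, edgeR adjusted p = 0.378) by the test. It was lower than skn-1gf (log2 -0.98, SE 0.34, edgeR adjusted p = 0.0425), a call lost without any 1 of 8 libraries, at adjusted p between 0.056 and 0.137. Those 8 libraries were the 3 of wild type, the 3 of the double mutant, and skn-1gf replicates 1 and 2.

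In the transmembrane glycoprotein family, dod-19 and dod-20 were higher in all 3 mutants than in wild type and showed no called change between the double mutant and either single mutant. The gene dod-19 measured 402, 377 and 453 CPM in the double mutant, 685, 479 and 466 in daf-2lf, 458, 498 and 308 in skn-1gf, and 166, 195 and 215 in wild type. The range of skn-1gf overlapped those of the double mutant and of daf-2lf. The double mutant lay below daf-2lf without overlap, and wild type stood below all mutants. Against wild type dod-19 rose by 1.09 on the log2 scale in the double mutant (SE 0.21, edgeR adjusted p = 0.000828), by 1.499 in daf-2lf (SE 0.21, edgeR adjusted p = 7.99e-05) and by 1.13 in skn-1gf (SE 0.21, edgeR adjusted p = 0.00113). Its level in the double mutant did not differ by the test from that in daf-2lf (log2 -0.41, SE 0.20, edgeR adjusted p = 0.381) or skn-1gf (log2 -0.04, SE 0.20, edgeR adjusted p = 0.915).

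At a level far below, dod-20 measured 1.14, 2.05 and 1.36 CPM in the double mutant, 1.91, 2.63 and 1.63 in daf-2lf, 2.43, 2.81 and 1.70 in skn-1gf, and 0.416, 0.241 and 0.277 in wild type. Again every mutant library lay above every wild-type library, where the gene had 22 counts in total, and it passed the filter through the mutant libraries. Its log2 fold changes against wild type were 2.24 in the double mutant (SE 0.38, edgeR adjusted p = 0.000381), 2.67 in daf-2lf (SE 0.38, edgeR adjusted p = 9.26e-05) and 2.84 in skn-1gf (SE 0.37, edgeR adjusted p = 0.00011). The double mutant against daf-2lf gave -0.44 (SE 0.32, edgeR adjusted p = 0.506). Over the 12 libraries, dod-19 and dod-20 had a Pearson r of 0.865.

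The gene dod-3 was lowest in skn-1gf and highest where daf-2 was impaired. It measured 13.96, 13.5 and 10.9 CPM in the double mutant, 10.9, 9.86 and 10.3 in daf-2lf, 0.360, 0.383 and 0.373 in skn-1gf, and 3.06, 4.72 and 3.00 in wild type. The ranges of the double mutant and daf-2lf overlapped and lay above wild type, and skn-1gf lay below it. It rose in daf-2lf against wild type (log2 1.53, SE 0.20, edgeR adjusted p = 5.79e-05) and fell 9.53-fold in skn-1gf (log2 -3.25, SE 0.26, edgeR adjusted p = 3.02e-06), on 23 counts in the skn-1gf libraries together. The gene passed the filter through the other genotypes. Adding skn-1gf to daf-2lf gave a log2 fold change of 0.30 (SE 0.19, edgeR adjusted p = 0.476), so the double mutant was 33.9-fold above skn-1gf (log2 5.08, SE 0.26, edgeR adjusted p = 2.27e-07). The double mutant was also above wild type (log2 1.83, SE 0.20, edgeR adjusted p = 1.2e-05).

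The gene dod-23 did not pass the low-count filter. It had 2, 0 and 0 counts in the double mutant, 1, 0 and 0 in daf-2lf, 0, 0 and 0 in skn-1gf, and 11, 26 and 9 in wild type. Counts were thus almost confined to the wild-type libraries. Against a floor of 3 counts over the group, it was at least 13.8-fold lower in skn-1gf than in wild type. It was 24.3-fold lower in the double mutant (exact 95% interval of the count ratio 6.34 to 206, counting error only) and 36.4-fold lower in daf-2lf (6.21 to 1470). Wild-type replicate 2 held 26 of the 46 wild-type counts. Without it the gene was at least 8.6-fold lower in skn-1gf, 15.1-fold lower in the double mutant (3.67 to 133) and 22.7-fold lower in daf-2lf (3.62 to 939). In a fit with no filter, over 24468 genes, its edgeR adjusted p against wild type was 0.00254 for the double mutant, 0.0027 for daf-2lf and 0.00134 for skn-1gf.

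**Figure D2:**
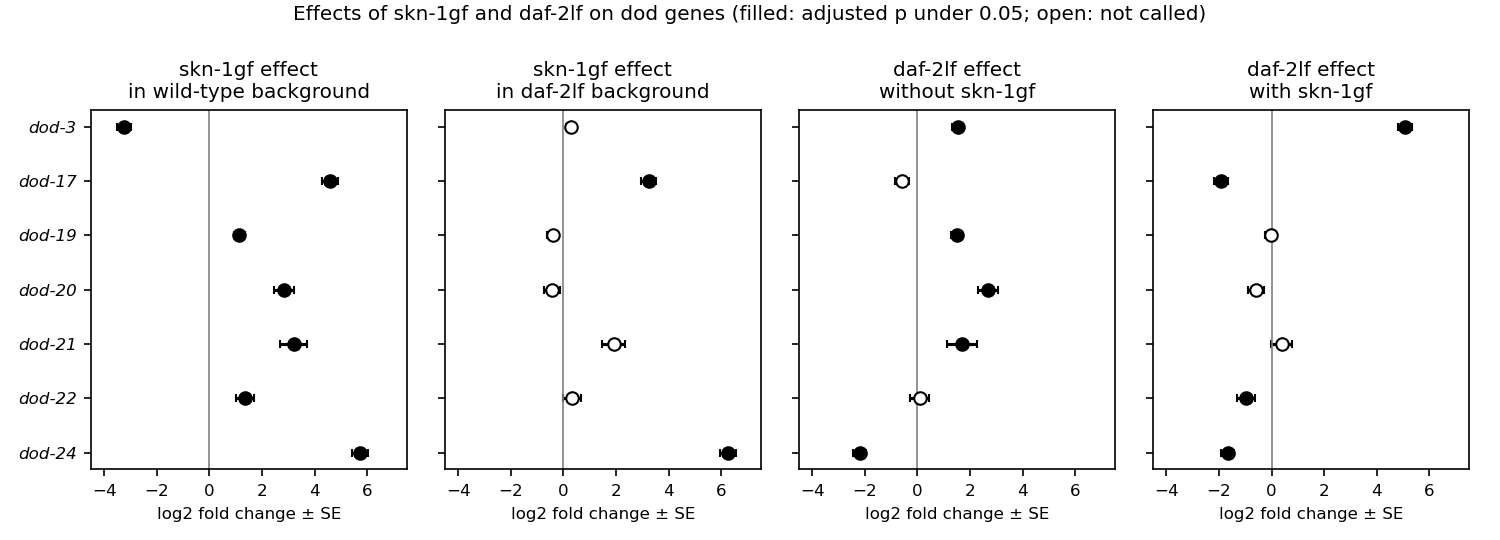
Log2 fold change with its standard error for the 7 dod genes that passed the filter, by contrast, with filled points called at adjusted p under 0.05. In the double mutant against daf-2lf, dod-24 at 6.26 and dod-17 at 3.24 are called, and the other genes lie between -0.44 and 1.91.

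Counted over the 7 dod genes that passed the filter, the contrasts differed in how the calls read against the background. Between the double mutant and daf-2lf, 2 were called, dod-24 and dod-17, both higher, where 1.62% of all tested genes were called (1.01% higher and 0.616% lower). The balance of these background calls turned with DESeq2 (232 higher and 284 lower), with limma-voom (941 higher and 1172 lower) and without daf-2lf replicate 3 (190 higher and 279 lower). In skn-1gf against wild type all 7 were called, 6 higher and dod-3 lower, where 43.6% of all tested genes were called (22.6% higher and 21% lower). Of the higher ones, dod-20 and dod-21 were below the level of the filter (0.456 CPM) in wild-type libraries and passed it through the mutants, so the filter favoured a difference. The same holds for both in the comparisons of daf-2lf and of the double mutant with wild type. In skn-1gf dod-3 was below that level in every library (at most 0.383 CPM) and passed the filter through the other genotypes. This bears on its calls against wild type and against the double mutant. In daf-2lf against wild type, 5 were called, 4 higher (dod-3, dod-19, dod-20 and dod-21) and dod-24 lower, against a background of 52.3% of all tested genes (29.5% higher and 22.9% lower). The double mutant against wild type gave 6 calls, all higher, with 47.3% of all genes called (26.2% higher and 21.1% lower). The double mutant against skn-1gf gave 4, dod-3 higher and dod-17, dod-22 and dod-24 lower, with 31.7% called (13.4% higher and 18.4% lower). Without daf-2lf replicate 1, 4 genes were still called in daf-2lf against wild type, with log2 fold changes of -2.28 for dod-24, 1.39 for dod-3, 1.19 for dod-19 and 2.62 for dod-20. These contrasts share libraries and are not independent of one another. Another scaling (edgeR's RLE factors) moved the median log2 fold change of all genes from 0.03 to -0.13 in skn-1gf against wild type and from 0.15 to -0.03 in daf-2lf against wild type. It took the share of calls that were higher to 40.4%, against 51.8%, in skn-1gf and to 45.2%, against 56.3%, in daf-2lf. No dod gene called here changed direction under it.

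Whether the effect of skn-1gf depended on the daf-2 background was tested by the interaction, the log2 fold change of the double mutant against daf-2lf minus that of skn-1gf against wild type. It was called for 4 of the 7 dod genes, where 27.7% of all tested genes were called (9.91% positive and 17.7% negative). For dod-3, which rested on 23 counts in skn-1gf and passed the filter through the other genotypes, it was positive, 3.55 (SE 0.33, edgeR adjusted p = 4.45e-05). Here skn-1gf lowered the gene on the wild-type background and gave no called change on the daf-2lf background. For dod-20, which rested on 22 counts in wild type and passed the filter through the mutants, the interaction was -3.27 (SE 0.49, edgeR adjusted p = 0.000692). It was -1.54 for dod-19 (SE 0.29, edgeR adjusted p = 0.00269) and -1.33 for dod-17 (SE 0.38, edgeR adjusted p = 0.0222). With skn-1gf on the daf-2lf background dod-17 rose less (log2 3.24, against 4.57 on the wild-type background). On the daf-2lf background dod-19 (log2 -0.41) and dod-20 (log2 -0.44) gave no called change. The interaction call for dod-17 was lost without wild-type replicate 1, skn-1gf replicate 2, daf-2lf replicate 2 or double mutant replicate 3, at adjusted p between 0.051 and 0.0614. Without daf-2lf replicate 1 the interaction values were 3.68 for dod-3, -3.23 for dod-20, -1.24 for dod-19 and -1.45 for dod-17, all called. For dod-21 (-1.30, SE 0.69, edgeR adjusted p = 0.179) and dod-22 (-1.06, SE 0.49, edgeR adjusted p = 0.123) the interaction did not pass.

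The stretch of chromosome IV from dod-21 to dod-17 holds 13 protein-coding genes, 10 of them CUB-like. Of the 10 genes tested there, 8 are CUB-like, and all 8 rose in skn-1gf against wild type, where 22.6% of all tested genes did. Of the 8, 4 are the dod genes counted above, and 2, dod-21 and F55G11.7, passed the filter only through mutant libraries. The CUB-like genes dct-19 and F55G11.6 were too low to be tested. Among those that are not dod genes, F55G11.2, 52 bases from dod-22, averaged 803 CPM in skn-1gf and 18.96 in wild type (log2 5.404, SE 0.24, edgeR adjusted p = 1.15e-07). In the double mutant it averaged 197 CPM, against 8.73 in daf-2lf (log2 4.49, SE 0.23, edgeR adjusted p = 5.28e-07). In this stretch 4 genes rose in the double mutant against daf-2lf: dod-24, F55G11.2, dod-17 and F55G11.4 (log2 1.21, edgeR adjusted p = 0.0228), where 1.01% of all tested genes did. Genes between them did not all move. C32H11.11, between dod-21 and dod-24 and not CUB-like, fell in skn-1gf to 0.0863 CPM, against 0.824 in wild type (log2 -3.25, edgeR adjusted p = 0.00114).

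**Figure D3:**
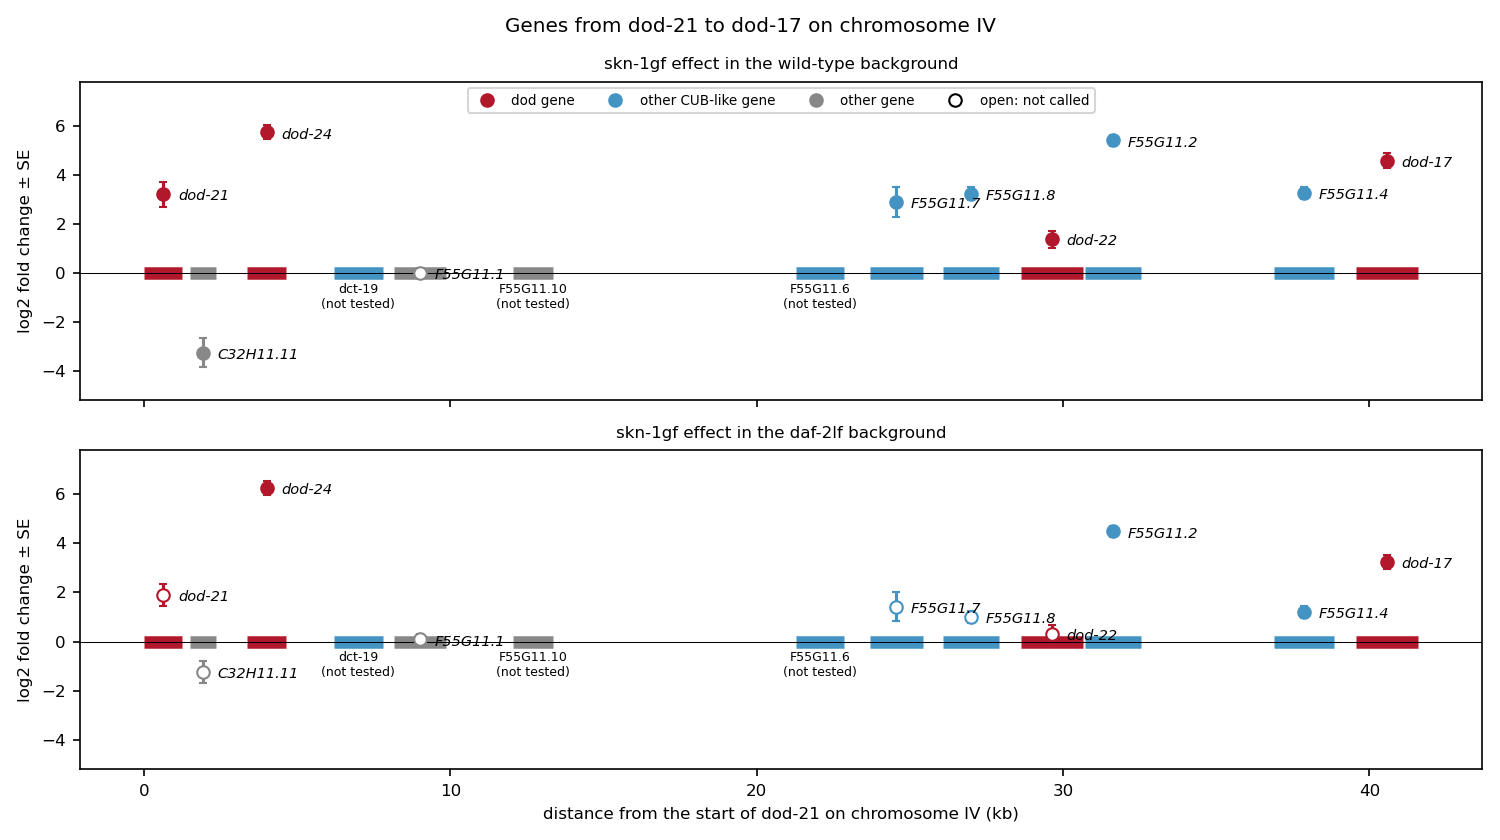
The 13 protein-coding genes from dod-21 to dod-17 by distance from the start of dod-21 in kb, with bars along 0 for gene extents and points with standard errors for the log2 fold change of skn-1gf on the wild-type background (top) and the daf-2lf background (bottom). CUB-like genes lie above 0 on the wild-type background, and dod-24, F55G11.2, dod-17 and F55G11.4 have filled, called points on the daf-2lf background.

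Within 10 kb of a dod gene 22 other genes were tested, 7 of them inside this stretch. Of the 22, 2 passed the test between double mutant and daf-2lf, F55G11.2 and F55G11.4 of the stretch. In daf-2lf against wild type 13 were called (6 higher, 7 lower), and of the 15 outside the stretch 8 (3 higher, 5 lower). Between skn-1gf and wild type 15 were called (8 higher, 7 lower), and of the 15 outside 10 (4 higher, 6 lower). The shares of all tested genes called in these contrasts were 1.62%, 52.3% and 43.6%, in the same order. Beside dod-19, ZK6.11 averaged 776 CPM in daf-2lf, 1206 in skn-1gf and 487 in wild type, higher in skn-1gf (log2 1.31, edgeR adjusted p = 0.00236) and in daf-2lf (log2 0.67, edgeR adjusted p = 0.049). Beside dod-20, Y39D8A.1 rose in skn-1gf (log2 1.42, edgeR adjusted p = 0.00135) and B0554.5 gave no call there (log2 0.40, edgeR adjusted p = 0.198). On chromosome II, skpo-1, which encodes a peroxidase and lies 1134 bases from dod-23, averaged 0.35 CPM in daf-2lf, 0.637 in skn-1gf and 6.69 in wild type. It fell in daf-2lf (log2 -4.24, edgeR adjusted p = 5.74e-05) and in skn-1gf (log2 -3.31, edgeR adjusted p = 0.000344). The genes flanking dod-3, str-33 and srg-57, had 0 counts in all libraries, and F49E12.7, on the other side of dod-23, had 50 counts in all and was not tested.

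The wider families were counted as well, a step added after the values of the dod genes were seen. The table names a CUB-like domain for 53 genes, of which 44 were tested. Of the 40 that are not dod genes, 11 rose and 0 fell in the double mutant against daf-2lf, with a median log2 fold change of 0.554 over the 40 and 0 over all tested genes. In daf-2lf against wild type 26 rose and 2 fell, with a median of 0.95 over the 40 and 0.145 over all genes. In skn-1gf against wild type 32 rose and 0 fell, with a median of 1.48 over the 40 and 0.0252 over all genes. Shares of all tested genes that rose and fell were, in the same order, 1.01% and 0.616%, 29.5% and 22.9%, and 22.6% and 21%. Of the 40, 5 were below the level of the filter in at least 1 wild-type library and passed it through other libraries. In the fit of only the groups compared these rises became 6 for the double mutant against daf-2lf and 16 for daf-2lf against wild type.

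An infection-response gene among them, irg-5, and the gene C32H11.4 had large changes, as dod-24 and dod-17 did. The gene irg-5 averaged 59.9 CPM in the double mutant, 11.3 in daf-2lf, 709 in skn-1gf and 26.4 in wild type. C32H11.4 averaged 237 CPM in the double mutant, 9.93 in daf-2lf, 626 in skn-1gf and 14.3 in wild type. Both rose in skn-1gf against wild type (log2 4.75 for irg-5, edgeR adjusted p = 5.19e-06, and 5.46 for C32H11.4, edgeR adjusted p = 2.12e-07). Both also rose in the double mutant relative to daf-2lf (log2 2.40 for irg-5, edgeR adjusted p = 0.00549, and 4.58 for C32H11.4, edgeR adjusted p = 6.44e-07). They were picked after their values were seen. How reads shared by similar genes of this family were counted is not stated in the sources used here.

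The transmembrane glycoprotein domain was named for 23 genes, and 18 genes other than dod-19 and dod-20 were tested, 2 of which were below the level of the filter in at least 1 wild-type library. Of these 1 rose and 1 fell in the double mutant against daf-2lf, 11 rose and 0 fell in daf-2lf against wild type, and 15 rose and 3 fell in skn-1gf against wild type. Their median log2 fold changes were 0.0845 for the double mutant over daf-2lf, 1.04 for daf-2lf over wild type and 1.49 for skn-1gf over wild type. Medians over all tested genes were 0, 0.145 and 0.0252 in that order. The shares of all tested genes that rose and fell were 1.01% and 0.616%, 29.5% and 22.9%, and 22.6% and 21%. The interaction was called for 12 of the 18, negative for 11. Among the 40 CUB-like genes it was called for 18, all negative. Over all tested genes 27.7% were called, 17.7% negative and 9.91% positive.

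**Figure D4:**
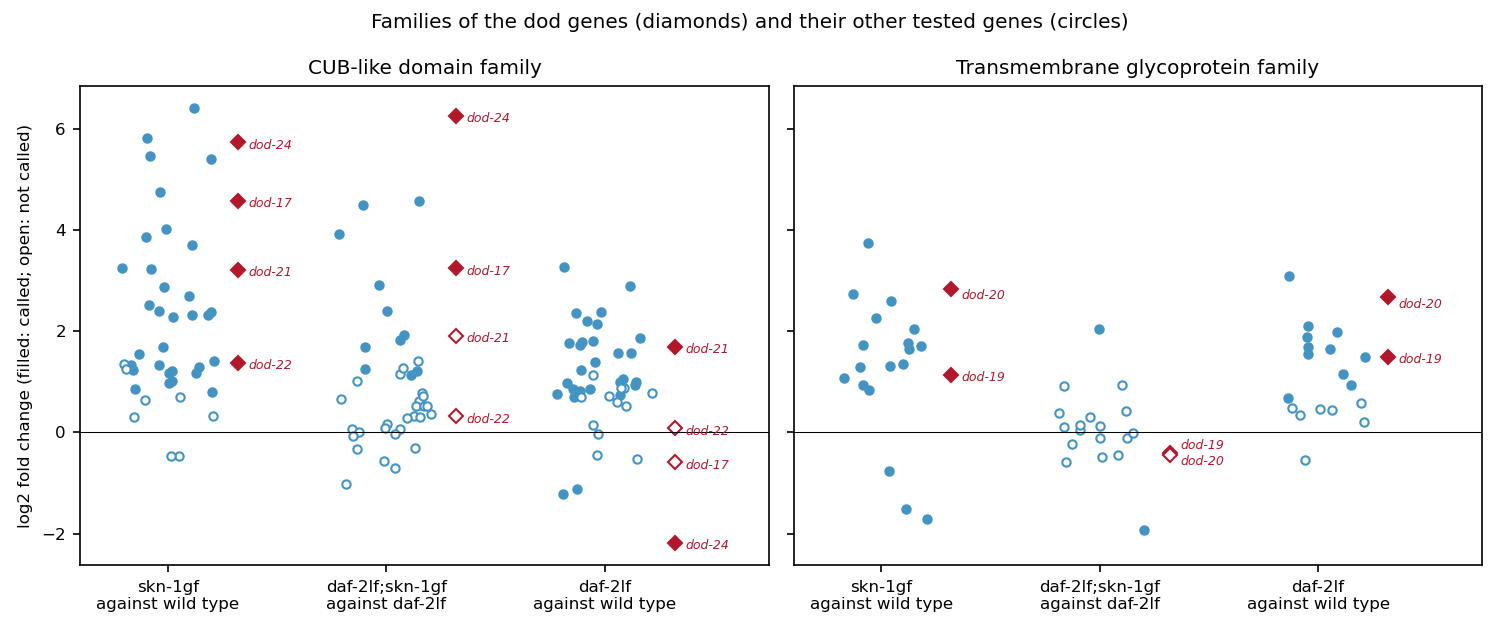
Log2 fold changes of the tested genes of the CUB-like and transmembrane glycoprotein families, circles for genes other than dod genes and diamonds for dod genes, filled where called, by contrast. Most circles lie above 0 in skn-1gf and in daf-2lf against wild type, while dod-24 lies at -2.19 in daf-2lf against wild type.

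Lists of genes tied to DAF-16 and to PMK-1 were counted in the same contrasts. As background, 29.5% of all tested genes were called higher and 22.9% lower in daf-2lf against wild type. In skn-1gf against wild type the shares were 22.6% and 21%. Of 17 listed genes that DAF-16 activates, 13 were tested, and 11 rose and 0 fell in daf-2lf against wild type. They included mtl-1, a metallothionein (3.95 CPM in daf-2lf and 0.110 in wild type, log2 5.03), sod-3, a mitochondrial superoxide dismutase (16.4 CPM in daf-2lf and 1.33 in wild type, log2 3.63), lys-7, a lysozyme (245 CPM in daf-2lf and 35.0 in wild type, log2 2.81), and sip-1, a small heat shock protein (173 CPM in daf-2lf and 27.2 in wild type, log2 2.67). The median log2 fold change of the 13 was 1.21, and that of all genes 0.145. In skn-1gf against wild type 1 of the 13 rose and 4 fell. For the double mutant relative to daf-2lf, edgeR called 0 of them, with 2 at an unadjusted p under 0.05, and DESeq2 called 1 and limma-voom 5. Of all 15575 tested genes edgeR called 1.62% in this contrast, with 2317 at an unadjusted p under 0.05, and limma-voom called 2113. DESeq2 called 516 of 24468.

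Of 8 listed genes that DAF-16 represses 5 were tested, and 3 fell in daf-2lf against wild type. These were vit-2 and vit-5, which encode yolk proteins (vit-2 with 0.0566 CPM in daf-2lf and 106 in wild type, vit-5 with 0 in daf-2lf and 3.64 in wild type), and ins-7, an insulin-like peptide (0.143 CPM in daf-2lf and 1.39 in wild type, log2 -3.20). The fall of dod-24 in daf-2lf had this direction. In the same contrast dod-17 (log2 -0.59, edgeR adjusted p = 0.0812) and dod-22 (log2 0.08, edgeR adjusted p = 0.865) were not called. The genes dod-3, dod-19, dod-20 and dod-21 were called higher. The nuclease nuc-1 rose there (94.6 CPM in daf-2lf and 53.5 in wild type, log2 0.82). The median of the 5 was -3.2. In skn-1gf against wild type 1 rose and 2 fell. Comparing the double mutant with daf-2lf, edgeR, DESeq2 and limma-voom called 0, with 0 at an unadjusted p under 0.05. There edgeR called 1.62% of all tested genes.

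The levels of daf-16 itself were 202, 194 and 193 CPM in the double mutant, 116, 208 and 190 in daf-2lf, 146, 149 and 143 in skn-1gf, and 130, 135 and 124 in wild type. Replicate 1 of daf-2lf had the lowest of all. The double mutant was called against wild type (log2 0.60, SE 0.18, edgeR adjusted p = 0.0159), and daf-2lf was not (log2 0.40, SE 0.18, edgeR adjusted p = 0.0793). Among 10 genes that encode DAF-16, its co-factors or its opponents, 4 rose and 1 fell in daf-2lf against wild type (median log2 0.283). Of all tested genes 29.5% rose and 22.9% fell in this contrast. The largest of the 4 rises was that of pqm-1, a transcription factor that acts in opposition to DAF-16 (39.4 CPM in daf-2lf and 13.5 in wild type, log2 1.55). The others named by size were hlh-30 (199 CPM in daf-2lf and 110 in wild type, log2 0.86), the 14-3-3 gene ftt-2 (747 CPM in daf-2lf and 469 in wild type, log2 0.67), and the only fall, hcf-1 (61.7 CPM in daf-2lf and 109.8 in wild type, log2 -0.83). In skn-1gf against wild type pqm-1 was the 1 call (42.4 CPM in skn-1gf and 13.5 in wild type, log2 1.65), where 43.6% of all tested genes were called. Between the double mutant and daf-2lf 0 of the 10 were called by edgeR or DESeq2, with 0 at an unadjusted p under 0.05, and limma-voom called 2. Of all 15575 tested genes edgeR called 1.62% there and limma-voom called 2113.

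Of 11 listed immune genes that depend on PMK-1, 8 matched a row and were tested. Relative to daf-2lf, the double mutant had 2 rises, irg-5 and irg-4 (179 CPM in the double mutant and 81.9 in daf-2lf, log2 1.13, edgeR adjusted p = 0.0308). In that contrast 1.01% of all tested genes rose. Of the 8, 4 also carry the CUB-like domain and belong to that count as well: irg-5, irg-4, C17H12.8 and K08D8.5. In skn-1gf against wild type 5 rose, where 22.6% of all tested genes rose and 21% fell. In daf-2lf against wild type 5 rose and irg-5 fell, where 29.5% of all tested genes rose and 22.9% fell. The largest rises there were clec-67, a C-type lectin gene (93.3 CPM in daf-2lf and 15.8 in wild type, log2 2.57), lys-2, a lysozyme gene (362 CPM in daf-2lf and 85.4 in wild type, log2 2.08), C17H12.8 (529 CPM in daf-2lf and 179 in wild type, log2 1.57) and clec-85 (67.2 CPM in daf-2lf and 24.8 in wild type, log2 1.44). The median log2 fold changes of the 8 were -0.0106 for the double mutant over daf-2lf, 1.15 for daf-2lf over wild type and 1.01 for skn-1gf over wild type. Of the 6 genes of the PMK-1 pathway itself, atf-7 was called in daf-2lf against wild type (log2 0.34, edgeR adjusted p = 0.0269) and tir-1 in skn-1gf against wild type (67.1 CPM in skn-1gf and 30.1 in wild type, log2 1.15, edgeR adjusted p = 0.00826). Between the double mutant and daf-2lf edgeR, DESeq2 and limma-voom called 0 of the 6, with 0 at an unadjusted p under 0.05. There edgeR called 1.62% of all tested genes.

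A further pair of genes in the table bears dod names. The gene dod-6 measured 171, 159 and 169 CPM in the double mutant, 247, 141.8 and 151 in daf-2lf, 56.1, 13.7 and 86.0 in skn-1gf, and 67.8, 63.5 and 70.0 in wild type. Like dod-3 it rose in daf-2lf against wild type (log2 1.42, SE 0.46, edgeR adjusted p = 0.0212) and stood higher in the double mutant than in skn-1gf (log2 1.68, SE 0.46, edgeR adjusted p = 0.0151), while skn-1gf against wild type was not called (log2 -0.37, SE 0.45, edgeR adjusted p = 0.541). The gene dod-18 stayed between 5.45 and 9.78 CPM over all libraries and was called in no contrast, with log2 fold changes between -0.30 and 0.39 for the genotype pairs. The gene skn-1 averaged 220.2 CPM in the double mutant, 172 in daf-2lf, 149 in skn-1gf and 118 in wild type. The gene daf-2 averaged 127 CPM in the double mutant, 92.7 in daf-2lf, 91.9 in skn-1gf and 67.5 in wild type. Its mean in daf-2lf covers 26.8 CPM in replicate 1, the lowest of all libraries, 125 in replicate 2 and 126 in replicate 3. The mutant alleles are not given, so their transcript levels do not check the genotype labels.

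Genes most like each dod gene over the 12 libraries were ranked by Pearson correlation of log2 CPM. C13B4.1, described in the table as having a cytochrome b561 domain, ranked first for both dod-24 (r = 0.992) and dod-17 (r = 0.993), and F55G11.2 ranked second for both (r = 0.991 for dod-24 and 0.993 for dod-17). The next were the CUB-like genes C32H11.4 for dod-24 (r = 0.982) and C32H11.3 for dod-17 (r = 0.989). The first places were taken by clc-7 for dod-19 (r = 0.982), Y65A5A.1 for dod-20 (r = 0.980), lips-10 for dod-21 (r = 0.956), bas-1 for dod-22 (r = 0.953) and T19A5.3 for dod-3 (r = 0.984). All of these points share libraries, depth and genotype groups. The ranking was not firm: without daf-2lf replicate 1, 2 of the 3 genes stayed among the first 3 for dod-17 and dod-24, 1 for dod-3, dod-20 and dod-21, and 0 for dod-19 and dod-22. With Spearman in place of Pearson correlation 2 stayed for dod-22 and dod-24, 1 for dod-21, and 0 for dod-3, dod-17, dod-19 and dod-20. Among the dod genes, dod-3 had r of -0.637 with dod-17, -0.681 with dod-22, -0.559 with dod-24, -0.155 with dod-21, -0.129 with dod-20 and 0.138 with dod-19.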

How the data were processed

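RNA of whole worms was sequenced in 12 libraries, 3 for each of 4 genotypes. The authors deposited whole-number read counts per gene in 1 table, not normalized. The submitters' processing notes name the genome build ce10, while per the file headers the chromosome versions are those of WBcel235. The aligner, the counter, strand handling and the fate of multi-mapping reads are not given in the sources used here. Of 46936 gene identifiers, 46920 were in a RefSeq table of WBcel235 and 45476 had the same coordinates there. For dod-19 the RefSeq coordinates differ, and those of the Ensembl annotation are the same as the deposited ones. No sequences are shown.

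Groups and replicate numbers came from the sample titles. In R 4.3.3 with edgeR 4.0.16, genes were filtered at a minimum count of 10 (filterByExpr) and libraries scaled by trimmed mean of M-values. A model with 1 coefficient per genotype over the 12 libraries (8 residual degrees of freedom) was tested with the quasi-likelihood F test and adjusted over all tested genes. The standard error is the log2 fold change divided by the root of its F statistic. Log2 CPM used a prior count of 2, and 3 counts served as the floor. Intervals and floors cover counting error only. The procedure was tested on simulated data. Replicates of 1 genotype differed beyond sampling noise in every pair.

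The genes named are the dod genes, the nearest genes on each side, daf-16, daf-2, skn-1, the 3 protein-coding genes most correlated with each, and up to 4 called genes of each list by size of change in daf-2lf against wild type. Others are said to be picked later. The members and lists were chosen with earlier results of these data known. Alternatives were RLE scaling, total counts, no filter, a replicate block, a per-library length trend, only the groups compared, each library left out in turn, limma-voom (limma 3.58.1) and DESeq2 1.42.0.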

Additional observations from a re-analysis of the deposited data

Results flagged for a closer look

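The effect of skn-1gf differed between the daf-2lf and the wild-type background, by the interaction test of edgeR, for 4 dod genes. On the log2 scale the difference was 3.55 for dod-3 (adjusted p = 4.45e-05, on 23 counts in skn-1gf, a gene that passed the low-count filter through the other genotypes). It was -3.27 for dod-20 (adjusted p = 0.000692, on 22 counts in wild type, a gene that passed the low-count filter through the mutants), -1.54 for dod-19 (adjusted p = 0.00269) and -1.33 for dod-17 (adjusted p = 0.0222). Of all tested genes 27.7% were called in this test. With 3 libraries a genotype, no test for a single library far from the others of its group was made.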

How the results depend on the processing

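Of 42 changes (7 dod genes in 6 contrasts), 31 kept their call and direction under every alternative run. Leaving out each library in turn gave 7 to 7 called dod genes in skn-1gf against wild type, 4 to 6 in daf-2lf against wild type, 2 to 3 in the double mutant against daf-2lf, 6 to 6 in the double mutant against wild type, 3 to 4 in the double mutant against skn-1gf and 3 to 5 in the interaction. With the replicate block the counts were 7, 6, 2, 6, 3 and 4; dod-22 in the double mutant against skn-1gf then had an adjusted p of 0.0631 and dod-17 in daf-2lf against wild type one of 0.0428. Replicate numbers did not pair the libraries: 2 of 18 same-numbered pairs had a correlation of deviations over 0.1 (range -0.129 to 0.296), and 4 of 12 libraries correlated best with their own number. In 3 cases, none of them called, the sign turned. For dod-22 in daf-2lf against wild type, at 0.08, the log2 fold change was -0.10 with RLE factors, -0.14 with total counts, -0.042 with no filter, -0.071 with only the groups compared, -0.16 with limma-voom, -0.11 with DESeq2, -0.02 without wild-type replicate 1 and -0.53 without daf-2lf replicate 1 (range over left-out libraries -0.53 to 0.36). For dod-19 in the double mutant against skn-1gf, at -0.04, it was 0.0003038 without skn-1gf replicate 1, 0.066 without skn-1gf replicate 2 and 0.02 without double mutant replicate 2 (range -0.22 to 0.066). For dod-21 in the same contrast, at 0.40, it was -0.20 without double mutant replicate 3 (range -0.20 to 0.70). The cause was not tested.

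Over all genes, the double mutant against daf-2lf gave 253 calls, against 1086 with the length trend, 109 with only the groups compared, 2113 with limma-voom, 516 with DESeq2, 469 without daf-2lf replicate 3, and 139, 150 and 154 without double mutant replicates 1, 2 and 3. With limma-voom, calls were 11743 (6787 in the edgeR fit) in skn-1gf against wild type, 12047 (7368) in the double mutant against wild type, 10101 (4944) in the double mutant against skn-1gf and 9444 (4308) in the interaction. The double mutant against wild type gave 11113 with only the groups compared, and the interaction 2786 without wild-type replicate 1. Under RLE factors the share of higher calls in the double mutant against wild type was 43.5%, against 55.3%, and in the interaction 48.3%, against 35.8%. Within 20 kb in place of 10 kb, 23 neighbours were called for skn-1gf over wild type and 4 for the double mutant over daf-2lf. Motif counts in promoters were not run. Depth limits dod-20, dod-21, dod-22 and dod-23, whose levels rest on few counts in wild type. It also limits dod-3 in skn-1gf, with 23 counts.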
